A study of Mus musculus with 25 samples.

Results

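The comparison described here sets fetal liver group 1 innate lymphoid cells (FL G1-ILCs) against natural killer cells of adult bone marrow (BM NK cells). Its members are the 7 libraries of these 2 groups, 4 of FL G1-ILCs and 3 of BM NK cells, out of 25 libraries in the series. FL libraries 2 and 3 differed by little more than sampling noise (chi-square per degree of freedom 1.18, against 3.51 to 5.73 for the 5 other FL pairs and 6.23 to 9.10 for the BM NK pairs), so their counts were summed and counted once. This left 3 samples a group, counted as independent. The study itself reports 4 biological replicates of FL G1-ILCs and 3 of BM NK cells, so the summing departs from its count. All mice were wild-type C57BL/6. FL G1-ILCs came from livers of E18.5 fetuses (late gestation) and were sorted as CD3- NK1.1+ NKp46+ cells with intermediate CD49a and CD49b by the labels (the study's text calls their CD49a positive), whereas BM NK cells came from 8-week-old mice and were sorted as CD3- NK1.1+ NKp46+ CD49a- CD49b+ cells. Tissue, age and cell type therefore changed together between the groups and cannot be told apart. The labels do not say that each library came from separate animals, so p-values measure the spread between these libraries.

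Group 1 innate lymphoid cells comprise NK cells, which circulate and kill infected or transformed cells, and ILC1s, which mostly stay in tissues. Both express the transcription factor T-bet and produce interferon-γ. NK cells additionally depend on the factor Eomes and, in mice, carry receptors of the Ly49 family that sense MHC class I on other cells. Lymphocytes that divide raise the genes of DNA synthesis in S phase and those of chromosome segregation in G2 and mitosis.

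The 7 libraries held between 2302643 and 5552469 counts in genes. Values below are CPM, the counts relative to the TMM-scaled library total, in the fit of 6 liver and marrow groups, given in the order FL 1, FL 2+3 and FL 4, then BM NK 1, 2 and 3. They depend on transcript length, so genes were compared between samples and not with each other. Fold changes are log2 FL G1-ILC over BM NK from edgeR's quasi-likelihood test with Benjamini-Hochberg adjustment over all 13424 genes tested. Genes with an adjusted p below 0.05 are spoken of as called.

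The sorts were visible in the genes of their antigens. Itga1, which encodes CD49a, was at 288, 213 and 265 CPM in FL G1-ILCs and 4.07, 0.938 and 3.65 CPM in BM NK cells. Itga2, which encodes CD49b, was at 22.7, 23.9 and 22.8 CPM against 121, 98.3 and 123 CPM. These genes follow the gates and are no result. Klrb1c, encoding NK1.1, and Ncr1, encoding NKp46, were expressed in every sample, at means of 1039 and 640 CPM in FL G1-ILCs and 2149 and 1430.1 CPM in BM NK cells. Tbx21, which encodes T-bet, did not pass the test, with 640, 656 and 612 CPM against 617, 652 and 679 CPM (log2 fold change -0.03 ± 0.08 SE, adjusted p = 0.81).

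Of the 13424 genes, 5205 (38.8%) were called, 2976 (22.2%) higher and 2229 (16.6%) lower in FL G1-ILCs. Counts of called genes in the lists below are to be read beside these shares. A change of more than 2-fold was seen for 1141 of the higher and 1176 of the lower genes. With upper quartile scaling the balance turned, to 2297 higher and 2796 lower (45.1% of calls higher, against 57.2% with TMM), and the median of all genes moved from 0.04 to -0.08 on the log2 scale, so that small shifts in 1 direction should be read relative to that median.

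**Figure D1:**
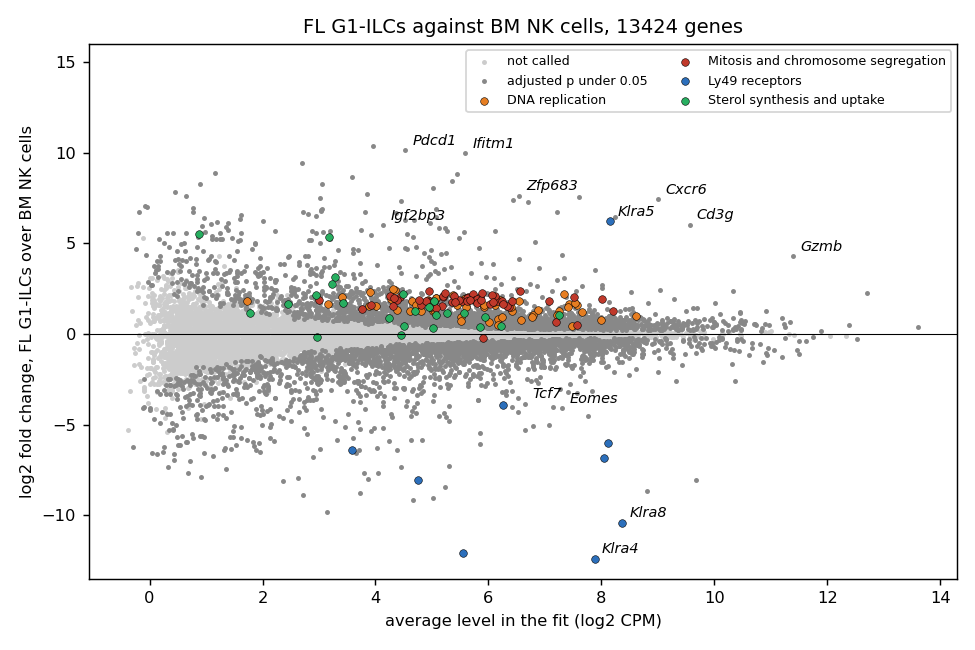
Log2 fold change of FL G1-ILCs over BM NK cells (y axis) against the average level of each gene in the fit (x axis, log2 CPM) for 13424 genes, with 4 gene lists coloured. The replication and mitosis genes form a band above 0, whereas the Ly49 receptors lie far below 0 except Klra5.

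Genes of DNA replication and of mitosis were higher in FL G1-ILCs almost without exception. All 53 replication genes and 55 of 56 mitosis genes were called higher, where 22.2% of all genes were, and in each of these 108 genes the 3 FL samples lay above the 3 BM NK samples, a pattern seen in 30% of all genes tested. Median log2 fold changes were 1.56 for replication and 1.83 for mitosis. Because these are bulk samples, more cells in cycle and more RNA per cycling cell cannot be told apart.

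Mki67, the gene of the proliferation marker Ki-67 (GRCm38 chromosome 7, 135689784 to 135716361, minus strand), was at 847, 742 and 817 CPM in FL G1-ILCs. In BM NK cells it was at 197, 280 and 101 CPM, so that the lowest FL sample exceeded the highest BM NK sample (log2 fold change 2.05 ± 0.41 SE, adjusted p = 3.7e-04). The BM NK samples differed from each other far more than the FL samples did. Summed over the mitosis list, BM NK samples reached 3716, 5234 and 2384 CPM, a 2.20-fold range, and FL samples 13100, 11964 and 12726 CPM, a 1.09-fold range. BM NK 3 was the lowest of its group in both lists.

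Rrm2, the small subunit of ribonucleotide reductase, which makes deoxynucleotides, was at 769, 602 and 716 CPM against 178, 212 and 61.4 CPM (log2 fold change 2.21 ± 0.40 SE). Top2a, the topoisomerase that untangles sister chromatids, was at 1158, 951 and 1160 CPM against 281, 439 and 135 CPM (1.93 ± 0.43 SE). In both genes the groups were separate and BM NK 3 was again lowest. The subunits of the replicative helicase moved together: Mcm2 to Mcm7 had log2 fold changes between 1.02 (Mcm6) and 1.72 (Mcm3), and its loaders and activators Cdc6 (1.98), Mcm10 (2.43) and Gins1 (2.04) had larger ones. At the low end of the list, the calls of the clamp loader subunits Rfc1 (0.52) and Rfc2 (0.45) and of the kinase Cdc7 (0.73) were lost without single samples (highest adjusted p 0.092 for Rfc1 without FL 2+3, 0.058 for Rfc2 without FL 1 or BM NK 3, and 0.15 for Cdc7 without BM NK 3).

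Among mitotic genes, Cdk1, the kinase that starts mitosis, was at 227, 211 and 239 CPM against 49.2, 77.1 and 21.7 CPM (log2 fold change 2.19 ± 0.47 SE). Birc5 (2.38) and Aurkb (1.89), of the chromosomal passenger complex, and Cenpe (2.26), a kinetochore motor, showed changes of similar size. Pttg1, the securin that holds separase inactive, did not pass the test, at 34.9 ± 3.91 CPM in FL G1-ILCs and 40.6 ± 4.79 CPM in BM NK cells (SD, n = 3, log2 fold change -0.22). DESeq2 called 35 of the 56 mitosis genes (Top2a had an adjusted p of 0.055 there), and 48 were called without BM NK 3. The replication count was 50 to 53 in every sample left out in turn and 53 with DESeq2.

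The mitosis sum relative to the replication sum was 1.09, 1.10 and 1.19 in the FL samples and 0.783, 1.00 and 0.784 in the BM NK samples. The FL values were thus all above the BM NK values, in a design of 3 against 3 in which an exact two-sided permutation test cannot go below 0.10.

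Scaled together with the other 6 groups of the series, replication sums ran from 10102 to 11308 CPM in FL G1-ILCs and from 2868 to 4925 CPM in BM NK cells. Samples of the other groups lay between 1864 and 2872 CPM, so that BM NK 3 fell just within their range. For mitosis, FL G1-ILCs had 11299 to 12300 CPM, BM NK cells 2248 to 4943 CPM and the other groups 716 to 1503 CPM, without overlap between these 3 sets. FL G1-ILCs and BM NK cells were chosen as the groups with the most cell division, so their rank above the others is no result.

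**Figure D2:**
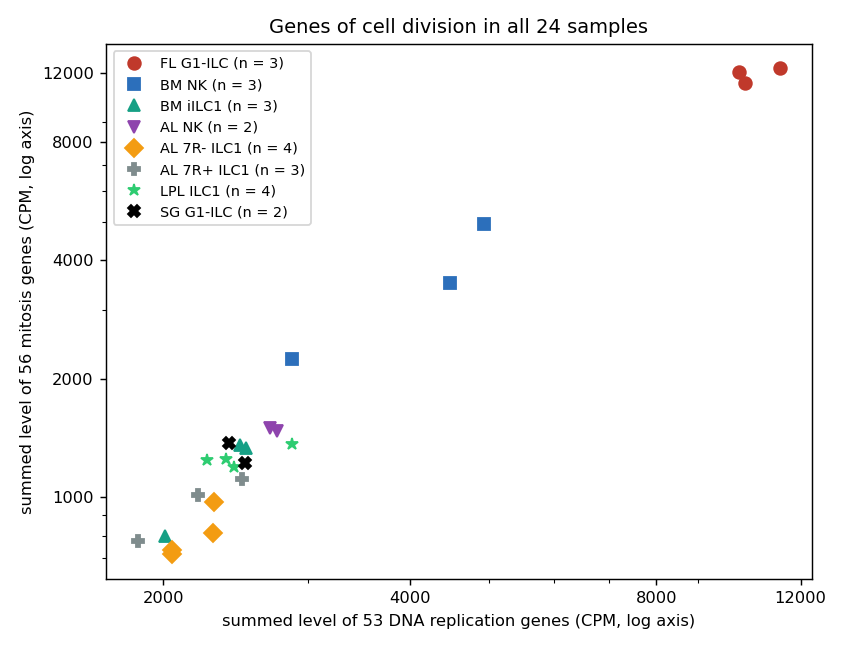
Summed level of 53 DNA replication genes (x axis, CPM, log axis) and of 56 mitosis genes (y axis, CPM, log axis) in each of the 24 independent samples of the series, by group. The 3 FL G1-ILC samples stand apart at the upper right, the 3 BM NK samples spread between them and the other groups. Both were chosen for comparison as the groups with the most cell division.

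Promoter letters known from cell cycle regulation were read in these lists, because their genes moved together. Sites for E2F factors, which act at the start of S phase, were searched as TTTCCCGC or TTTGGCGC, and the cell cycle homology region (CHR), bound by the DREAM complex in genes of mitosis, as TTTGAA or TTCGAA, both on either strand, in the 250 bases before the RefSeq start (GRCm38.p6). A promoter was matched for 9442 of 13422 symbols tested. Of these, 3.03% held the E2F letters and 15.2% the CHR letters. The E2F letters stood before 6 of 42 replication genes with a promoter (14.3%) and 2 of 49 mitosis genes (4.08%). The CHR letters stood before 21 of 49 mitosis genes (42.9%) and 8 of 42 replication genes (19%). CCAAT, whose matches can share end letters with the others, stood before 36 of 49 mitosis genes (73.5%), 24 of 42 replication genes (57.1%) and 40.6% of all. The same letters were also read in further lists. E2F letters stood before 6 of 31 regulators of the cycle (19.4%), 0 of 17 sterol genes and 0 of 22 glycolysis genes. CHR letters stood before 22.6%, 11.8% and 13.6% of these, and CCAAT before 54.8%, 94.1% and 40.9%. Among genes called higher with a promoter, 4.61%, 16.5% and 43.3% held the E2F, CHR and CCAAT letters. These are matches of letters and not measured binding. For the replication list (E2F) and the mitosis list (CHR), the 2 matched members of highest level are printed over 60 bases each. They are given in the direction of the gene, with the letters of the motif in capitals. They are Mcm6 (chr1:128359723-128359782, minus strand), Mcm5 (chr8:75109330-75109389, plus strand), Top2a (chr11:99024190-99024249, minus strand) and Mki67 (chr7:135716448-135716507, minus strand).
Mcm6: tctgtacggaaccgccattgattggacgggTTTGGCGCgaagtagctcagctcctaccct
Mcm5: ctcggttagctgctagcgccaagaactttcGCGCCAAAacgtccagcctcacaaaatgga
Top2a: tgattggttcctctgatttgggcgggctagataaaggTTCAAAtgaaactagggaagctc
Mki67: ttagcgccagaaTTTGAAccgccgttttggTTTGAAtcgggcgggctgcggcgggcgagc
Mcm6 and Mcm5 carry the E2F letters, Top2a and Mki67 the CHR letters, of which the Mki67 stretch holds 2 copies.

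The regulators of the cycle moved less uniformly than its machinery. Of 42 tested, 22 were called higher and 4 lower, where 22.2% and 16.6% of all genes were. Cdk2, which drives S phase, was at 194, 187 and 194 CPM against 52.0, 62.4 and 29.4 CPM (log2 fold change 1.99 ± 0.19 SE), with the same direction in E2f7 (2.25), E2f8 (2.19) and Foxm1 (1.71), transcription factors of the cycle. Cdkn1a, which encodes the cycle inhibitor p21, was also higher, at 31.3, 30.03 and 25.99 CPM against 2.3, 2.25 and 4.08 CPM (3.34 ± 0.46 SE). Mycn was higher at 9.57, 12.3 and 8.74 CPM against 0.884, 0.188 and 0.644 CPM, whereas Myc did not pass the test (280 ± 18.48 against 318 ± 67.9 CPM). The 4 lower genes were Btg1 (-1.30), Btg2 (-0.88) and Tob1 (-1.97), members of an antiproliferative family, and Rbl2 (-0.48), a pocket protein of resting cells. E2f1, at 29.5 ± 19.1 against 20.5 ± 11.7 CPM, did not pass.

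Maintenance of DNA methylation is coupled to replication, and its genes were higher: Uhrf1 (log2 fold change 2.08), Hells (1.73) and Dnmt1 (0.95). In the list of methylation and Polycomb genes, 11 of 20 were called higher and 1 lower, where 22.2% and 16.6% of all genes were. The 2 alternative catalytic subunits of Polycomb repressive complex 2 went in opposite directions. Ezh2 was at 142, 137 and 127 CPM against 63.2, 69.6 and 41.2 CPM, and Ezh1 at 65.0, 69.6 and 79.6 CPM against 142, 135 and 157 CPM, with separate groups in both.

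Glycolytic enzymes and sterol synthesis were higher in FL G1-ILCs. Glycolysis had 16 of 23 genes called higher and 1 lower, where 22.2% and 16.6% of all genes were. Its median log2 fold change was 1.32 and its summed level 11509 to 12094 CPM against 4182 to 4914 CPM. Ldha, which converts pyruvate to lactate, was at 2833, 2689 and 2806 CPM against 885, 1001 and 654 CPM (1.71 ± 0.11 SE). The lactate exporter Slc16a3 was at 137, 104 and 148 CPM against 7.25, 6.38 and 11.8 CPM (3.94 ± 0.42 SE). Aldoa (1.93), Tpi1 (1.75), Pgk1 (1.63) and Pkm (1.42) were likewise higher. The exception was Pfkp, a phosphofructokinase isoform, lower by a log2 fold change of -0.29, a call lost without any 1 of 5 of the 6 samples (adjusted p = 0.11 without BM NK 1). Several glycolytic genes have processed pseudogenes, so the split of their reads is uncertain.

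Sterol genes were called higher in 18 of 24 and lower in 0, with a median of 1.17 and sums of 1014 to 1157 CPM against 512 to 526 CPM. Sqle, the squalene epoxidase of sterol synthesis, was at 34.3, 30.2 and 24.8 CPM against 3.71, 3.38 and 2.79 CPM (3.16 ± 0.48 SE). Srebf2, the factor that drives this pathway, rose less (1.07). Of 31 nutrient uptake and mTOR genes, 6 were called each way, shares near those of all genes (22.2% higher and 16.6% lower), with a median of 0.01. Slc7a5 (1.65), an amino acid transporter, and Tfrc (1.15), the transferrin receptor, were higher (Tfrc not without FL 2+3, BM NK 1 or BM NK 3, adjusted p = 0.11 without FL 2+3), and Pik3ip1 (-2.51), an inhibitor of PI3-kinase, and Sesn1 (-1.26), an inhibitor of mTOR signalling, were lower.

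**Figure D3:**
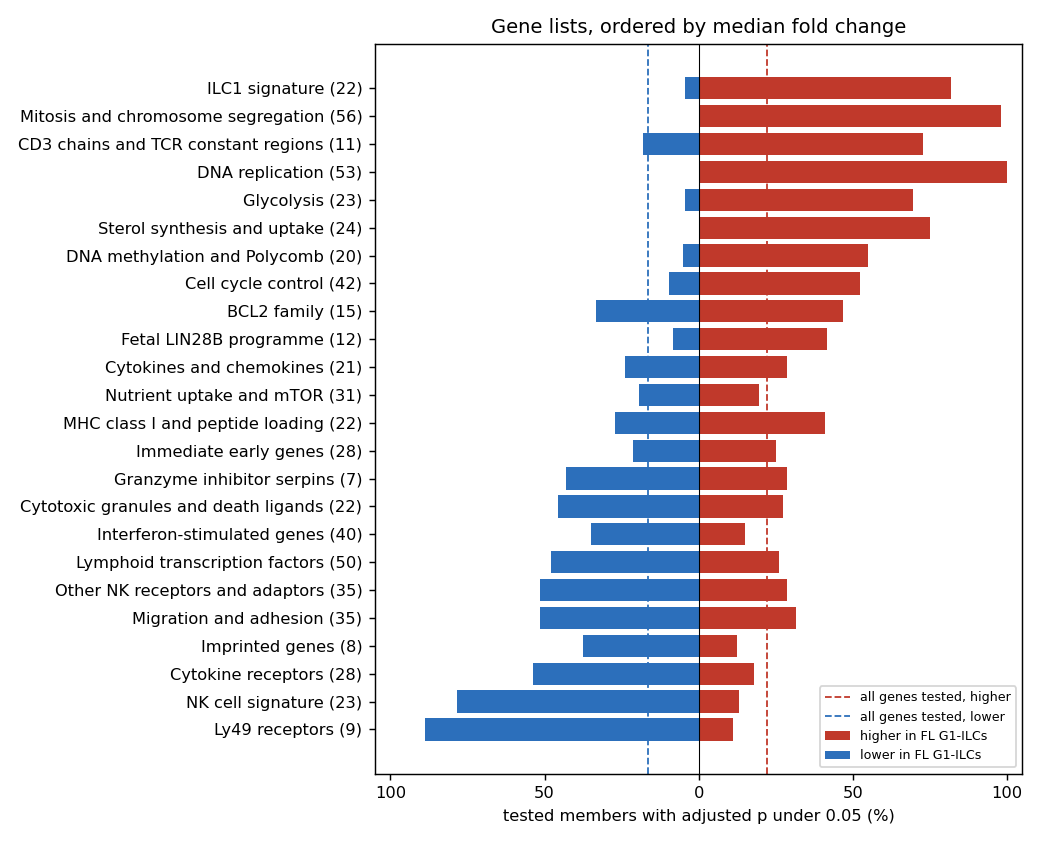
Share of tested members called higher (right) or lower (left) in FL G1-ILCs for 24 gene lists, with the number tested in brackets and dashed lines at the share of all genes tested (22.2% higher, 16.6% lower). Replication and mitosis reach 100% and 98.2% higher, and Ly49 receptors 88.9% lower.

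Ly49 receptors were the genes of largest loss. Of 9 tested, 8 were lower (median log2 fold change -6.82) and 1 was higher, where 16.6% and 22.2% of all genes were. Klra4, encoding Ly49D (chromosome 6, 130043731 to 130067271), was at 0, 0.306 and 0 CPM in FL G1-ILCs and 760, 778 and 868 CPM in BM NK cells, 2 counts against 12489 in all, a ratio of 6344 with a counting interval of 1756 to 52384. Klra1, encoding Ly49A, had 0 counts in the FL samples against 1641 in BM NK cells, at least 556-fold lower with a floor of 3 counts over the group. Klra8, encoding Ly49H, the receptor for a cytomegalovirus protein, was at 0, 1.69 and 0.23 CPM against 959, 998 and 1219 CPM.

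Klra5, encoding Ly49E, went the other way. It was at 950, 886 and 866 CPM in FL G1-ILCs and 11.5, 11.4 and 13.3 CPM in BM NK cells (log2 fold change 6.22 ± 0.42 SE, adjusted p = 1.9e-10). Klra5 (129898996 to 129917650) lies in the same cluster of chromosome 6 as the others. Its share made the summed Ly49 level of FL G1-ILCs, 886 to 999 CPM against 3275 to 3686 CPM in BM NK cells, almost wholly a single receptor. Scaled over all 8 groups, Klra5 was also high in adult liver IL-7R- ILC1s (516 ± 61.1 CPM, n = 4), while the other 6 groups had means of 11.4 to 32.9 CPM. The Ly49 genes are near-identical copies, among which reads may be shared, and the pseudogene Klra13-ps was at 6.90 to 13.4 CPM in FL G1-ILCs against 2545 to 3050 CPM in BM NK cells.

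Among 35 other NK receptors and adaptors, 10 were higher and 18 lower, where 22.2% and 16.6% of all genes were. Pdcd1, encoding the inhibitory receptor PD-1, was at 116, 86.4 and 98.2 CPM in FL G1-ILCs and 0.177, 0 and 0 CPM in BM NK cells (1574 counts against 1, ratio 1549 with a counting interval of 278 to 61196). No other group of the series had a mean above 20.4 CPM. The inhibitory receptor Lag3 (3.19), the receptor Cd160 (2.46) and the adhesion receptor Slamf7 (2.55) were also higher. Tigit (-0.71) and Klrg1 (-2.12), which encode inhibitory receptors too, were lower. Slamf6 and its adaptor Sh2d1a, which encodes SAP, were both lower, Sh2d1a at 2.19, 2.76 and 4.14 CPM against 201, 213 and 185 CPM (-6.06 ± 0.35 SE). Klrk1, encoding NKG2D (-1.16), Cd27 (-1.91) and Crtam (-4.51) were lower. Klrd1, encoding CD94, did not pass, at 1269, 1359 and 1435 CPM against 1370, 1249 and 1405 CPM, while its partner Klrc1, encoding NKG2A, was higher (1.17) and Klrc2 lower (-1.32).

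Of 22 cytotoxic genes tested, 6 were higher and 10 lower, where 22.2% and 16.6% of all genes were. Yet the summed level of all 26 in the list was 30871 to 31155 CPM against 11059 to 12319 CPM because the most abundant ones rose. Gzma, encoding granzyme A, was at 17754, 17662 and 17748 CPM against 4019, 3402 and 3792 CPM (2.25 ± 0.16 SE). Gzmb, encoding granzyme B, was at 6949, 6894 and 6946 CPM against 389, 285 and 376 CPM (4.31 ± 0.16 SE). Gzmc, of the same chromosome 14 cluster, was at 75.1, 74.0 and 55.0 CPM against 2.83, 2.81 and 6.01 CPM.

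Among the 10 lower members of the list, Prf1, encoding perforin, which forms pores, was at 362, 407 and 482 CPM against 805, 662 and 776 CPM (-0.84 ± 0.11 SE). Gzmm (-3.63) and Gzmk (-2.31), 2 further granzymes, Lyst (-1.26), Rab27a (-0.73) and Stx11 (-1.14), the last 3 needed for granule release, were lower. Of the death ligands, Tnfsf10, encoding TRAIL, was higher (95.8 ± 10.9 against 18.1 ± 2.56 CPM), and Fasl was higher by 0.58. Of 7 granzyme inhibitor serpins tested, 2 were called higher and 3 lower, where 22.2% and 16.6% of all genes were. The higher were Serpinb1a (3.2), with means of 45.6 against 4.895 CPM, and Serpinb6a (0.65). The granzyme B inhibitor Serpinb9 was called lower (-0.24). This call was lost without FL 4, BM NK 1 or BM NK 3 (adjusted p = 0.13 without BM NK 3) and with DESeq2 (adjusted p = 0.16). The Serpinb9 paralog Serpinb9b (-2.13) and Serpina3g (-0.68) were lower too.

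The lists of ILC1 and NK cell signature genes were chosen with earlier results of these data known and include genes the study shows in these samples, so their direction is not independent evidence. The ILC1 list had 18 of its 22 members higher and 1 lower (median 2.37), and the NK list 18 of 23 lower and 3 higher (median -3.63). Over all genes 22.2% were higher and 16.6% lower. Zfp683, encoding Hobit, a factor of tissue-resident lymphocytes, was at 70.3, 89.6 and 83.5 CPM against 0.177, 0.188 and 0.859 CPM (7.63 ± 0.26 SE). Cxcr6, a chemokine receptor of liver-resident cells, was at 305, 264 and 265 CPM against 1.59, 2.44 and 0.644 CPM. The 3 NK genes that went against their list were Fgl2 (2.37), Ly6c2 (1.64) and Emp3 (0.49). Rora was the ILC1 gene that was lower (-0.53), a call lost without FL 1, FL 4, BM NK 1 or BM NK 2 (adjusted p = 0.13 without BM NK 1) and with DESeq2 (adjusted p = 0.55).

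Genes of transcription factors were lower in 24 of 50 and higher in 13, where 16.6% and 22.2% of all genes were. Eomes was at 26.1, 32.9 and 36.6 CPM against 515, 539 and 557 CPM (-4.08 ± 0.28 SE), with separate groups. Tcf7, encoding TCF-1, was at 11.8, 10.1 and 15.6 CPM against 197, 176 and 155 CPM, and its relative Lef1 (-2.72) was lower with it. Zeb2 (-3.63), Prdm1 (-1.78) and Klf2 (-1.72), factors of NK cell maturation and egress, were lower too. Higher factors included Arid3a (3.38), Maf (1.42), Ikzf2 (1.28) and Zbtb16 (1.40), which encodes PLZF and was not called without FL 1 (adjusted p = 0.12).

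Genes of 2 RNA-binding proteins known from fetal haematopoiesis, Lin28b and Igf2bp3, were higher in FL G1-ILCs. Lin28b, which blocks let-7 maturation, was at 10.8, 11.8 and 8.51 CPM against 0.531, 0 and 0.215 CPM (5.22 ± 0.80 SE). Igf2bp3, an RNA-binding protein of the same programme, was at 112, 87.2 and 89.2 CPM against 1.42, 1.88 and 1.07 CPM (6.01 ± 0.48 SE). Over all 8 groups neither had a mean above 1.37 CPM outside FL G1-ILCs. Of the 12 genes tested in the list of the fetal LIN28B programme, 5 were higher (these 2, Mycn, Arid3a and Igf2bp2) and 1, Acvr2a, lower. Over all genes 22.2% were higher and 16.6% lower. The list median was 0.27 on the log2 scale, against 0.04 for all genes, and DESeq2 called 4 higher and 1 lower. The call of Igf2bp2 was lost without any 1 of the samples but FL 4 (adjusted p = 0.28 without FL 2+3). Hmga1 (0.31, adjusted p = 0.13) and Dicer1 (0.01, adjusted p = 0.97) did not pass.

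Genes of migration were lower in 18 of 35 and higher in 11, where 16.6% and 22.2% of all genes were. The egress receptors S1pr5 (-5.04) and S1pr1 (-2.15) and the chemokine receptors Cxcr4 (-3.26), which retains cells in marrow, and Ccr2 (-2.60), known for recruitment to inflamed tissue, were among the lower. Rgs1, which dampens chemokine signalling, was higher at 258 ± 12.02 against 22.8 ± 4.63 CPM, and Cd69, which opposes egress, at 104 ± 9.12 against 40.2 ± 5.06 CPM (SD, n = 3).

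Cytokine receptors were lower in 15 of 28 and higher in 5, where 16.6% and 22.2% of all genes were. Il10ra was at 48.4, 46.3 and 47.8 CPM against 320, 302 and 328 CPM (-2.74 ± 0.16 SE), and both chains of the IL-18 receptor were lower (Il18r1 -1.80, Il18rap -1.10). Il21r (2.67), Il12rb1 (1.38) and Tgfbr1 (1.22) were higher. Il7r was low in both groups, at 0.899 ± 0.815 and 3.68 ± 0.534 CPM. Of cytokines, Ifng was higher (71.3 ± 10.9 against 40.8 ± 14.7 CPM) and Osm, encoding oncostatin M, lower (0.996, 0.919 and 0 against 24.8, 20.4 and 33.1 CPM).

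CD3 and T cell receptor constant genes differed although both sorts were CD3-. Cd3g was at 1342, 1440 and 1531 CPM against 26.7, 17.4 and 21.9 CPM (6.02 ± 0.17 SE). Cd3e, whose product forms the surface complex with it, was at 1.74 ± 1.56 CPM in FL G1-ILCs (26 counts against 1), and its call was lost without FL 4, BM NK 1 or BM NK 2 (adjusted p = 0.11 without FL 4) and with DESeq2 (adjusted p = 0.069). Tcrg-C1 was higher (5.86) and Trdc lower, at 9.17, 16.7 and 11.96 CPM against 199, 203 and 214 CPM (-4.00 ± 0.28 SE).

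Interferon-stimulated genes were called lower in 14 of 40 and higher in 6, where 16.6% of all genes tested were lower and 22.2% higher. The 3 members of the Ifitm family, which restrict virus entry, were nevertheless among the largest gains. Ifitm1 (chromosome 7, 140967221 to 140969825) was at 254, 313 and 270 CPM against 0.177, 0.563 and 0 CPM (9.96 ± 0.49 SE). Ifitm2 was at 154, 243 and 170 CPM against 0, 0 and 1.72 CPM, and Ifitm3 at 62.2, 63.3 and 51.7 CPM against 0.177, 2.25 and 4.94 CPM. Ifi203 (-1.25), Ifi209 (-1.40) and Irf7 (-0.68) were among the lower. In the BCL2 family, 7 of 15 were called higher and 5 lower, where 22.2% and 16.6% of all genes were. Its BH3-only members Pmaip1, encoding Noxa (4.20), and Bbc3, encoding Puma (-2.01), went in opposite directions, and the survival genes Bcl2 (-0.41) and Mcl1 (-1.08) were lower while Bcl2l1 was higher (0.94).

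**Figure D4:**
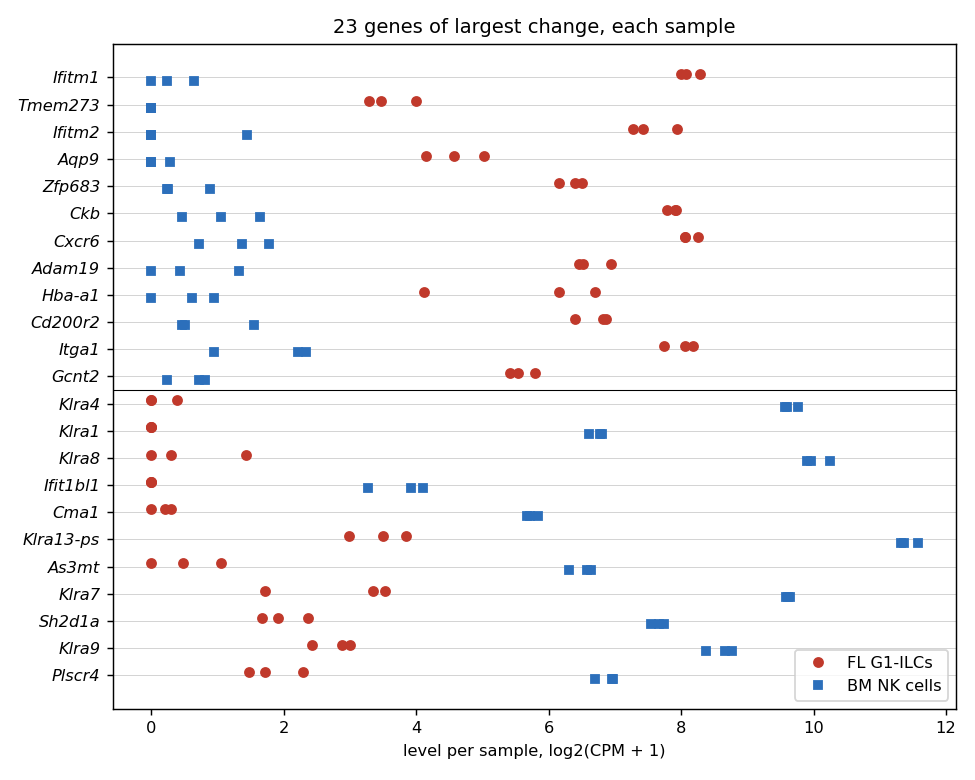
Level in each sample (x axis, log2(CPM + 1)) of 23 of the called genes of largest change among those with an average log2 CPM of at least 5 and no overlap between groups, 12 higher and 11 lower in FL G1-ILCs, circles for FL and squares for BM NK. Among the 11 lower genes 6 are Klra genes, and Hba-a1 is the higher gene with the widest spread among FL samples.

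The other genes of largest gain were Tmem273, Aqp9 (a glycerol channel), Ckb (the brain-type creatine kinase), Adam19 (a metalloprotease), Cd200r2 (a receptor of the CD200R family), Gcnt2 (a glycosyltransferase) and the haemoglobin gene Hba-a1. Tmem273 had 0 counts in BM NK cells and 176 in FL G1-ILCs, at least 57.7-fold higher. Ckb was at 220, 240 and 243 CPM against 2.12, 0.375 and 1.07 CPM. Genes of large loss outside the Ly49 family also included Ifit1bl1 (0 counts against 201, at least 68.1-fold lower), Cma1 (mast cell chymase), As3mt (arsenite methyltransferase) and Plscr4 (a phospholipid scramblase). Of the other mast cell markers looked at, none exceeded the mean of Cpa3 in BM NK cells, 3.26 ± 1.64 CPM (SD).

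Markers of other cell types moved with the groups and between samples. Their counts stand beside 22.2% of all genes called higher and 16.6% lower. Of 13 erythroid markers tested, 11 were called higher in FL G1-ILCs, but the samples differed, with Hba-a1 at 16.3, 103 and 70.6 CPM against 0.531, 0.938 and 0 CPM. The sums given here are over all members of a list found in the table, tested or not. The erythroid sum was 600 to 806 CPM against 387 to 512 CPM, most of it Car2 (561 ± 16.05 against 450 ± 63.1 CPM), and without FL 2+3 the called markers were 4 of 10. Rhag and Slc4a1, of the red cell membrane, had 0 counts in FL 1, and the embryonic globins Hbb-y and Hbb-bh1 had 0 in every sample. Neutrophil markers reached 103 and 419 CPM in FL 1 and FL 4 and 2.45 CPM in FL 2+3, against 4.08 to 4.42 CPM in BM NK cells, with 7 of 10 called and 3 of 10 without FL 4. The granule genes Elane and Ctsg of their precursors had 0 counts in every sample. Macrophage and monocyte markers were 49.6 to 130 CPM in FL samples and 12.7, 28.1 and 236 CPM in BM NK samples, where Lyz2 gave 190 CPM of BM NK 3, and 0 of 16 were called by edgeR or by DESeq2 (2 had an unadjusted p below 0.05, and 3 were called without BM NK 3). Hepatocyte markers summed to 17.9 to 22.1 CPM against 5.81 to 9.66 CPM over all 18 in the list. Of these, 3 were tested and 2 called, and Alb had 11, 2 and 10 counts against 0, 1 and 1. Of 14 B cell markers 3 were higher and 5 lower, where 22.2% and 16.6% of all genes were. Among the lower was Igkc, with 1 count in all FL samples and 2, 43 and 60 in BM NK cells. The part of these cells in the results above was not tested. The replication and mitosis counts were 50 and 52 without FL 1, 50 and 53 without FL 2+3, and 52 and 54 without FL 4. Each of these fits kept FL samples with erythroid or neutrophil markers, so the counts do not bear on that question.

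**Figure D5:**
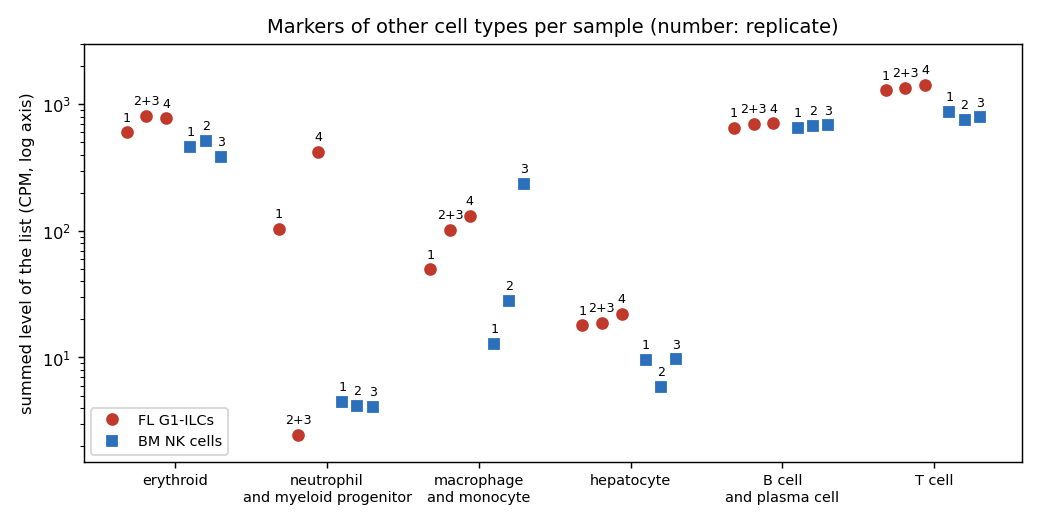
Summed level (y axis, CPM, log axis) of 6 marker lists of other cell types in each sample, with the replicate number beside each point. Neutrophil markers are high in FL 1 and FL 4 only, and macrophage markers are highest in BM NK 3.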

How the data were processed

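RNA was sequenced by the authors from sorted cells (SMART-seq HT libraries, 2000 cells each per the labels, a smaller number in the methods). Per the labels and the methods, reads were trimmed with fastp 0.23.0, aligned to mm10 with HISAT2 2.1.0 and counted with featureCounts of Subread 1.6.5. Annotation release, strand setting and treatment of multiply mapped reads are not given in the sources used here. The deposited values are raw counts per gene. Of 46078 gene identifiers, 935 had no name in GENCODE vM21 (0.104% of counts).

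FL G1-ILC libraries 2 and 3 were summed. Genes were filtered with filterByExpr (minimum count 10) and fitted in edgeR 4.0.16 (R 4.3.3, TMM, quasi-likelihood) over 18 samples of 6 liver and marrow groups, which share 1 estimate of spread, with Benjamini-Hochberg adjustment. The step was tested on counts simulated from its own model with few genes changed. That does not test the scaling where 38.8% of genes are called. Ratios of groups with 1 to 3 counts carry a counting interval at the 95% level, which covers counting error only. Named by rule were the 12 called genes of largest fold change in each direction with an average log2 CPM of at least 5 and no overlap between groups, and members of the gene lists. Some of the genes so named are not reported here. The lists and the comparison were chosen with earlier results of these data known. Alternatives were other scalings, filters, sample sets, a replicate block, thinning, DESeq2 1.42.0 and leaving out each sample.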

Additional observations from a re-analysis of the deposited data

How the results depend on the processing

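Called genes numbered 5205 with TMM and stayed within 1.5 times of that count under every alternative fit tried, between 4669 without a low-count filter and 5591 with FL libraries 2 and 3 kept apart; DESeq2 gave 4931 and thinning to 1 depth 4953. No gene of the lists turned direction past the threshold. Requiring also a log2 fold change over 1 left 2317 genes (1141 higher, 1176 lower), and an adjusted p under 0.01 left 3635. Upper quartile scaling gave 2297 higher and 2796 lower genes, in place of 2976 and 2229. Leaving out each sample gave 4247 to 4625 called genes, 2200 to 2614 higher and 1821 to 2168 lower. Replicate numbers did not pair the samples (correlations of deviations 0.0138 to 0.0189), and a fit with the replicate number as a block called 5283 genes. Of 482 called list and named genes, 361 were called under every alternative fit and without each sample. Depth limits genes of few counts: with 3 counts as the floor, about 0.19 CPM over a group cannot be told from 0.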
